A study of Homo sapiens with 8 samples.

Results

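The genes described are 9 Eph receptors, chosen by gene name from the 33221 genes of one expression table: EPHA1, EPHA2, EPHA4, EPHA10, EPHB1, EPHB2, EPHB3, EPHB4 and EPHB6. All 9 were found, and all 9 passed the filter on low counts that left 22727 genes in the tests. EPHA3, EPHA5, EPHA6, EPHA7 and EPHA8 were looked for by name and were not found in the table used here. RNA-seq was run on 8 libraries of prostate cancer cell lines, 2 in each of 4 groups, and the series names an EphA2 and CDH1 axis in cell migration. PC3, a line from a bone metastasis, was infected with lentivirus and kept for 72 h. The group called PC3 EphA2 KO received Cas9 with a guide to EphA2, and the group called PC3 control the CRISPR/Cas9 control lentivirus. DU145, a line from a brain metastasis, was transfected with plasmid by Lipofectamine and kept for 48 h: the plasmid expressed EphA2 in DU145 EphA2 OE and was a control plasmid in DU145 control. The labels give the genotype of the last 3 groups as WT. They describe neither selection nor cloning of infected or transfected cells, so each library is taken as a mixed culture in which cells without an edit or without the plasmid may be present.

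Eph receptors are the most numerous family of receptor tyrosine kinases. They are activated at contacts between cells, where EphA receptors mainly bind the GPI-anchored ephrin-A ligands and EphB receptors the transmembrane ephrin-B ligands; EPHA4 binds both classes. Bound receptors steer adhesion, repulsion and movement through the actin cytoskeleton. EPHA2 is often abundant in carcinomas, and without ligand it can promote migration once it is phosphorylated by growth factor-driven kinases. EPHA10 and EPHB6 are pseudokinases, receptors with a kinase domain that is held to be inactive.

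Total counts per library ran from 57571919 to 60951530. The libraries expressed epithelial keratins, with KRT8 at 66.7 to 92.3 FPKM and KRT18 at 103 to 139 FPKM (fragments scaled to transcript length and library size). Endothelial and blood markers were near 0, with a highest value of 0.125 FPKM among PECAM1, VWF, CDH5, PTPRC and LYZ. Of the stromal markers, COL1A1 was at 0.369 to 0.686 FPKM and COL3A1 at up to 0.0377 FPKM. PC3 is known to lack CTNNA1 through a homozygous deletion, yet the 4 libraries labelled PC3 held 36.5 to 45.8 FPKM of CTNNA1. The libraries labelled DU145 held 38.0132 to 45.6 FPKM of it. The cell line names are therefore used below as labels. The table calls the control columns NC and Vector, and their assignment to the control lentivirus and the control plasmid is a reading by convention. Values with the controls exchanged are given where they turn a direction.

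EPHA2 and EPHB4 made up nearly all of the Eph receptor mRNA. EPHA2, a receptor for ephrin-A1 and other ephrin-A ligands, averaged 57.3 FPKM over the 8 libraries, above 97.6% of the genes tested. EPHB4, the receptor for ephrin-B2, averaged 12.6 FPKM, above 85.6% of them. EPHA10 followed at 1.14 FPKM, and the other 6 receptors averaged 0.332 (EPHA4) to 0.721 (EPHB2) FPKM, all 7 below the median of 1.53 FPKM over the genes tested. EPHA2 had 11287 to 22926 counts and EPHB4 5356 to 6092, whereas EPHA1, the receptor with the fewest, had 49 to 230. EPHA4 had 149 to 218 counts, EPHB6 77 to 207, EPHB3 85 to 248 and EPHB1 168 to 421, so the low receptors carry the wider intervals below.

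**Figure D1:**
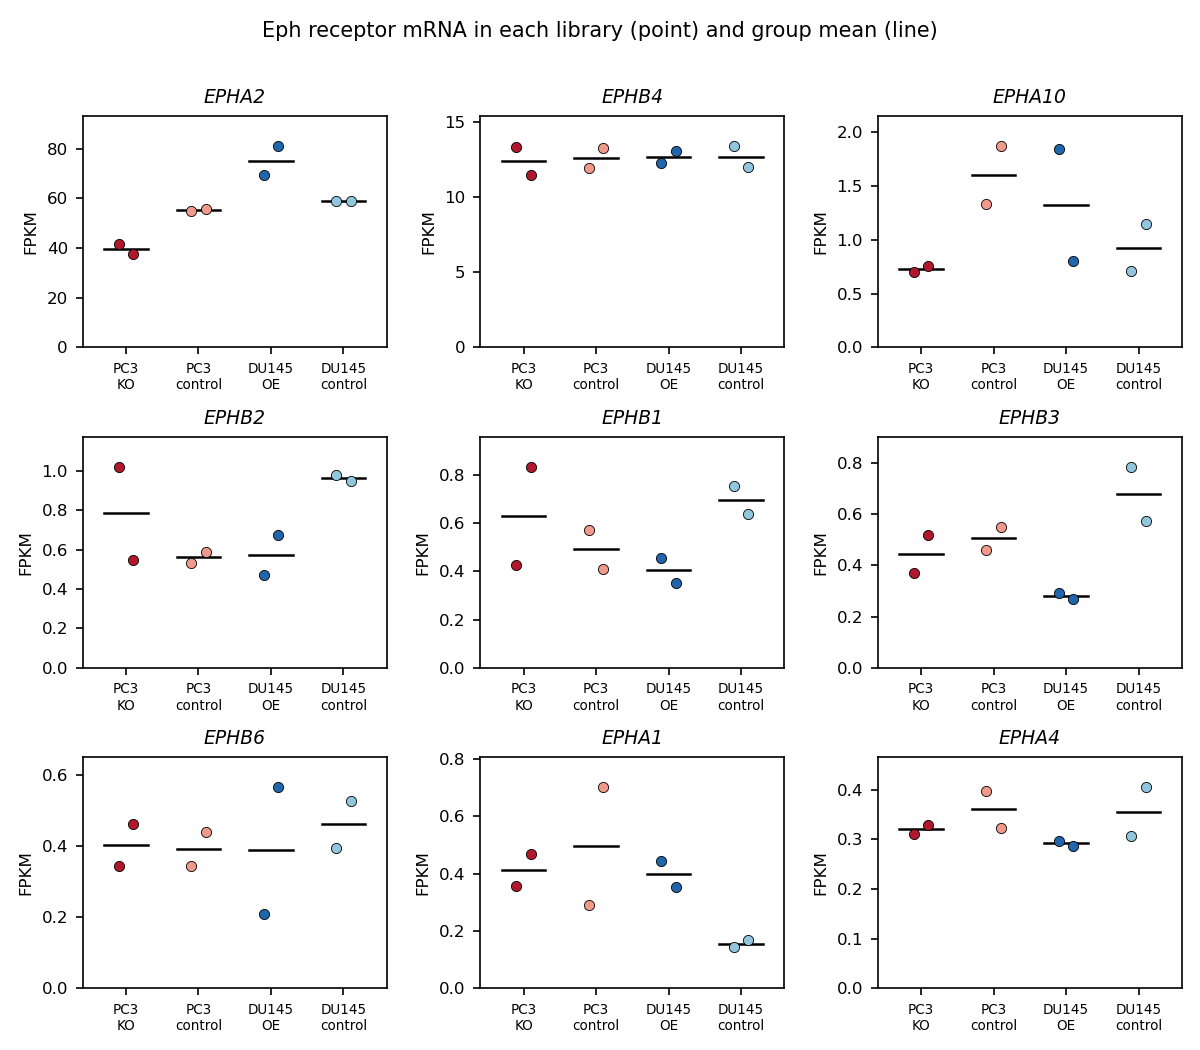
FPKM of the 9 Eph receptors (vertical axes, each from 0, with a scale of its own) in the 4 groups (horizontal axes); points are the 2 libraries of a group and lines their mean. EPHA2 separates all 4 groups, EPHB4 sits at 11.5 to 13.4 FPKM in every library, and EPHB3 is lowest in both DU145 EphA2 OE libraries.

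The 2 abundant receptors lie in different settings of the genome. EPHA2 (ENSG00000142627) spans GRCh38 chromosome 1, 16124337 to 16156069, on the minus strand, and EPHB4 (ENSG00000196411) chromosome 7, 100802565 to 100827523, also on the minus strand. The 250 bases before each start are shown because these 2 genes carry almost all of the family's mRNA. They are from RefSeq on GRCh38.p14, read 5′ to 3′ on the gene's strand, chr1:16156070-16156319 for EPHA2 and chr7:100827524-100827773 for EPHB4, and the capitals mark GC boxes (GGGCGG on either strand), the site bound by SP1-type factors.
EPHA2: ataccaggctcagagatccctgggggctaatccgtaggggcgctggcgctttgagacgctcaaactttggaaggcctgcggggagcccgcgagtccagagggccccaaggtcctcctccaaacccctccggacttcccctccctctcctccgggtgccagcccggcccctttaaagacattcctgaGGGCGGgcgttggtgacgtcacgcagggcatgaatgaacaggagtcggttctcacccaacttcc
EPHB4: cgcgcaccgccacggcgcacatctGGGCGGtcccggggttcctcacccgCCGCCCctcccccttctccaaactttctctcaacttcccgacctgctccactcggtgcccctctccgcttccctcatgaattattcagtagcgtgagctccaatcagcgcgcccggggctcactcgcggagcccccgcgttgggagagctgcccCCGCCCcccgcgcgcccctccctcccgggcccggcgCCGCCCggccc
The EPHA2 window held 1 GC box and the EPHB4 window 4, with a GC content of 63.2% and 72.8%. Of all 35116 promoter windows of this length, 42.6% held a GC box and the median GC content was 58.0%. RefSeq windows were matched for 8 of the 9 receptors, not for EPHA10, and each of the 8 held a GC box. None of them held a TATA box (TATAAA, in 10.7% of all windows), a CACGTG E-box (6.34%) or an AP-1 motif (TGANTCA, 6.57%), searched on both strands. Windows of the low receptors EPHA1 and EPHB2 had a GC content of 59.2% and 84.8%, so GC content did not order the receptors by level. A motif match describes the sequence only.

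EPHA2 mRNA was lower in the libraries infected with its CRISPR virus and higher in those given its plasmid. It was at 41.7 and 37.7 FPKM in PC3 EphA2 KO and at 55.1 and 55.6 FPKM in PC3 control. It was at 69.3 and 81.02 FPKM in DU145 EphA2 OE and at 58.8 and 58.9 FPKM in DU145 control. The groups did not overlap in either comparison, and in the order DU145 EphA2 OE, DU145 control, PC3 control, PC3 EphA2 KO no neighbouring groups overlapped. In edgeR the log2 fold change was -0.46 in the knockout (SE 0.09, 95% interval -0.68 to -0.24) and 0.31 in the overexpression (SE 0.09, 95% interval 0.09 to 0.53). Neither passed the threshold of 0.05 after adjustment over all genes (adjusted p = 0.415 and 0.458; unadjusted p = 0.00146 and 0.0126). DESeq2 with its own filter did not call EPHA2 in the knockout (adjusted p = 0.0523). DESeq2 on the genes tested in edgeR, a run chosen after seeing the data, called EPHA2 lower there (adjusted p = 0.015). The log2 fold change in the overexpression was 0.39 without DU145 EphA2 OE replicate 1 and 0.22 without replicate 2.

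The difference between the EPHA2 responses, knockout minus overexpression, was -0.77 on the log2 scale (SE 0.13, 95% interval -1.08 to -0.46, edgeR adjusted p = 0.169). It was called by DESeq2 (adjusted p = 0.00453), and by edgeR without DU145 EphA2 OE replicate 1 (adjusted p = 0.0225). With the controls exchanged, EPHA2 kept its direction in both comparisons, at log2 fold changes of -0.60 and 0.45 (edgeR adjusted p = 0.185 and 0.429), and the difference was -1.05 (0.067). A count of EPHA2 reads does not tell edited from unedited transcripts, and in a mixed culture fewer cells that express a gene and less RNA per cell cannot be told apart. Reads of the plasmid's EPHA2 sequence and of the chromosomal gene cannot be told apart either. EPHA2 overlaps 1 other gene of the table, on the opposite strand, which had at most 116 counts in a library.

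Across the family, no receptor passed in edgeR in the knockout or the overexpression. In the knockout 0 of 9 were called, where 0.0264% of all genes tested were, and 2 of 9 had an unadjusted p under 0.05, where 6.62% of all genes did. Those were EPHA2 and EPHA10, both lower, and DESeq2 with its own filter called 0 of 9 (0.768% of all genes). In the overexpression 0 of 9 were called (0.0396% of all genes) and 4 of 9 had an unadjusted p under 0.05 (9.06%): EPHA1 and EPHA2 higher, EPHB2 and EPHB3 lower, with 0 of 9 called by DESeq2 (1.33%). The libraries of both groups did not overlap for 2 receptors in the knockout, both lower, where 43.1% of all genes did not overlap (19.5% higher and 23.6% lower). In the overexpression they did not overlap for 6 receptors, 2 higher and 4 lower, against 37.3% of all genes (22.4% higher and 14.9% lower). Median log2 fold changes of the 9 were -0.14 in the knockout and -0.31 in the overexpression, beside medians of -0.0021 and 0.0087 over all genes tested. With 2 libraries against 2, an exact permutation test of a single gene cannot go below p = 0.333, so single genes were judged by fits that share information over the whole table.

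**Figure D2:**
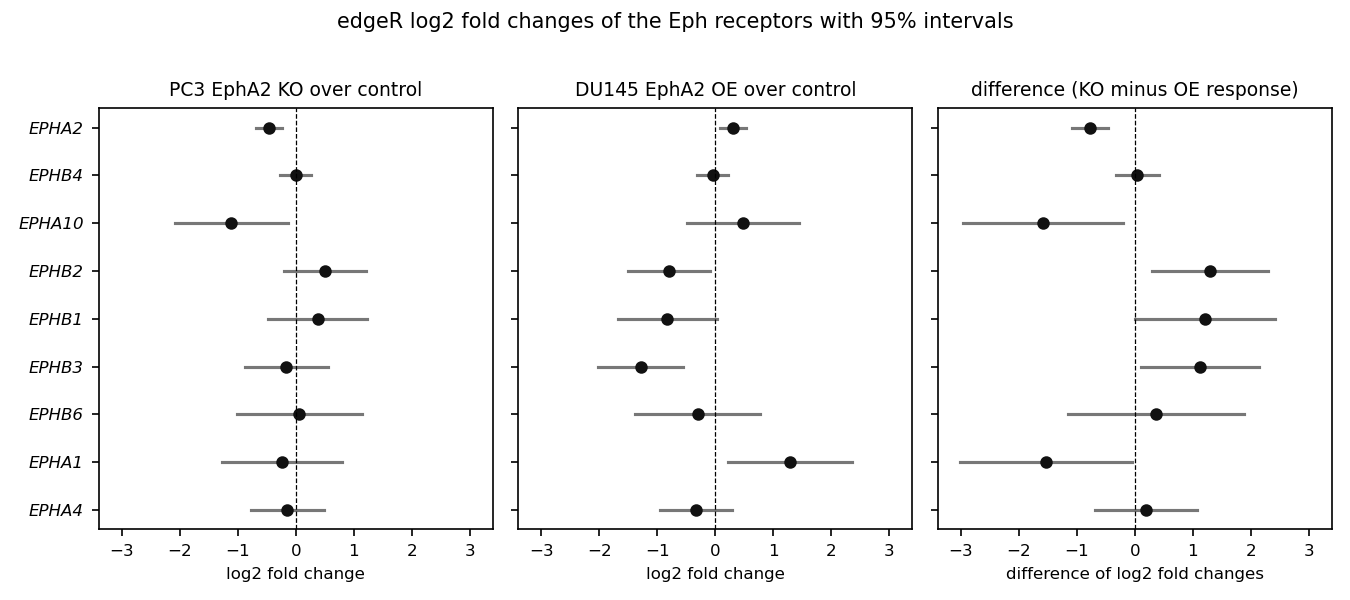
Log2 fold changes of the 9 Eph receptors in edgeR (points, horizontal axes) with 95% intervals (lines), for PC3 EphA2 KO over PC3 control, DU145 EphA2 OE over DU145 control, and the difference of both. EPHB4 lies near 0 within a narrow interval in each panel, and the intervals of EPHB1, EPHB2 and EPHB3 lie mostly on the negative side in the overexpression.

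Among the other EphA receptors, EPHA10 was the one with separate groups in the knockout. This pseudokinase (ENSG00000183317, chromosome 1, 37713880 to 37765066, minus strand) was at 0.705 and 0.756 FPKM in PC3 EphA2 KO and at 1.33 and 1.87 FPKM in PC3 control. Both knockout libraries were lower than both controls, and the log2 fold change was -1.11 (SE 0.42, 95% interval -2.09 to -0.13, edgeR adjusted p = 0.732). In DU145 EphA2 OE it was at 1.84 and 0.804 FPKM, and in DU145 control at 0.708 and 1.14 FPKM. There the groups overlapped, and the log2 fold change of 0.48 (SE 0.42, edgeR adjusted p = 0.776) was -0.27 without DU145 EphA2 OE replicate 1 and -0.26 with the controls exchanged. The log2 fold change in the knockout was -0.38 with the controls exchanged.

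EPHA1, a receptor of epithelia (ENSG00000146904, chromosome 7, 143390289 to 143408856, minus strand), stood apart in DU145 control alone. It was at 0.443 and 0.355 FPKM in DU145 EphA2 OE and at 0.144 and 0.167 FPKM in DU145 control. The overexpression libraries were both higher (log2 fold change 1.29, SE 0.46, 95% interval 0.22 to 2.35, edgeR adjusted p = 0.506), on 49 to 145 counts a library. In PC3 EphA2 KO it was at 0.356 and 0.468 FPKM, between the PC3 control libraries at 0.290 and 0.702 FPKM. Its direction turned in both comparisons with the controls exchanged, to a log2 fold change of 1.35 in the knockout and -0.30 in the overexpression. The knockout value of -0.24 was 0.53 without PC3 control replicate 2. EPHA1 overlaps the abundant focal adhesion gene ZYX on the opposite strand, which had up to 14144 counts. The use of strand in counting is not given in the sources used here. ZYX had log2 fold changes of 0.28 in the knockout and -0.09 in the overexpression (edgeR adjusted p = 0.786 and 0.906), and its part in the EPHA1 values was not tested.

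EPHA4, which binds ephrins of both classes (ENSG00000116106, chromosome 2, 221418027 to 221574158, minus strand), varied least among the low receptors. Its libraries ran from 0.288 to 0.405 FPKM. It had a log2 fold change of -0.14 in the knockout (SE 0.27) and -0.33 in the overexpression (SE 0.27), with edgeR adjusted p = 0.974 and 0.753. The 95% intervals were -0.77 to 0.48 and -0.96 to 0.29, which allow a change in either direction, and both DU145 EphA2 OE libraries lay below both DU145 control libraries.

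The EphB receptors divided into 1 abundant and steady member and 4 low ones. EPHB4 was at 13.3 and 11.5 FPKM in PC3 EphA2 KO and at 11.9 and 13.3 FPKM in PC3 control. DU145 EphA2 OE had 12.3 and 13.1 FPKM and DU145 control 13.4 and 12.03 FPKM. All groups overlapped, and its highest library was 1.17 times its lowest, against 2.15 times for EPHA2. The log2 fold changes were -0.0027 in the knockout (95% interval -0.27 to 0.26) and -0.05 in the overexpression (95% interval -0.31 to 0.22), with edgeR adjusted p = 1 and 0.94. The sign in the overexpression turned with library totals in place of TMM (0.0029) and with the controls exchanged (0.02). EPHB4 overlaps 2 other genes of the table, the more abundant of them at up to 1837 counts.

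EPHB3, a receptor known from the intestinal crypt (ENSG00000182580, chromosome 3, 184561785 to 184582408, plus strand), had the lowest unadjusted p of the family in the overexpression. It was at 0.293 and 0.269 FPKM in DU145 EphA2 OE and at 0.785 and 0.572 FPKM in DU145 control. The overexpression libraries were the lowest of all 8, and the log2 fold change was -1.29 (SE 0.31, 95% interval -2.02 to -0.56, edgeR adjusted p = 0.412; DESeq2 adjusted p = 0.0873). In PC3 EphA2 KO it was at 0.372 and 0.52 FPKM and in PC3 control at 0.459 and 0.552 FPKM. Those groups overlapped, at a log2 fold change of -0.16 (SE 0.31, unadjusted p = 0.619 in edgeR). The log2 fold change in the overexpression was -0.81 with the controls exchanged and -0.39 with limma on log2(FPKM + 1), a scale that understates changes of low genes.

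EPHB2, the partner of EPHB3 in crypt positioning (ENSG00000133216, chromosome 1, 22710839 to 22914270, plus strand), was at 0.472 and 0.675 FPKM in DU145 EphA2 OE and at 0.981 and 0.949 FPKM in DU145 control. Both overexpression libraries were lower (log2 fold change -0.79, SE 0.30, 95% interval -1.50 to -0.09, edgeR adjusted p = 0.522). In PC3 EphA2 KO it was at 1.02 and 0.547 FPKM and in PC3 control at 0.535 and 0.588 FPKM. These overlapped, and the log2 fold change of 0.50 (SE 0.30, edgeR adjusted p = 0.806) rested on replicate 1 of the knockout: without it the value was -0.02. EPHB2 with the controls exchanged was at -0.33 in the knockout and 0.04 in the overexpression.

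EPHB1, an EphB receptor known from axon guidance (ENSG00000154928, chromosome 3, 134597801 to 135259370, plus strand), was at 0.457 and 0.352 FPKM in DU145 EphA2 OE and at 0.755 and 0.639 FPKM in DU145 control. The overexpression libraries were again both lower (log2 fold change -0.83, SE 0.37, 95% interval -1.68 to 0.03, edgeR adjusted p = 0.566). In PC3 EphA2 KO it was at 0.425 and 0.835 FPKM and in PC3 control at 0.573 and 0.409 FPKM, which overlapped (log2 fold change 0.38, SE 0.37, edgeR adjusted p = 0.906). Without PC3 EphA2 KO replicate 2 the knockout value was -0.19. EPHB1 with the controls exchanged was at -0.18 in the knockout and -0.27 in the overexpression. EPHB6, the EphB pseudokinase (ENSG00000106123, chromosome 7, 142855061 to 142871094, plus strand), ran from 0.21 to 0.565 FPKM, and both of these extremes were DU145 EphA2 OE libraries. Its log2 fold changes were 0.06 in the knockout and -0.31 in the overexpression (SE 0.46 each, edgeR adjusted p = 1 and 0.895).

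EPHB1, EPHB2 and EPHB3 together, a grouping made after their values were seen, summed to 1.22 and 1.30 FPKM in DU145 EphA2 OE and to 2.52 and 2.16 FPKM in DU145 control. They summed to 1.82 and 1.901 FPKM in PC3 EphA2 KO and to 1.57 and 1.55 FPKM in PC3 control. The overexpression libraries held the lowest sums of all 8 and the DU145 control libraries the highest. Each of these receptors was lower in both overexpression libraries, so the separation of the sums there follows from the grouping. The knockout sums lay above those of PC3 control without overlap, as 19.5% of single genes did among all tested. The knockout values were also known when the grouping was made, so this separation is not a separate result. In that comparison each of these receptors overlapped by itself, and EPHB3 had a log2 fold change of -0.16. With the controls exchanged, the knockout sums lay below those of their controls instead of above them. In the difference of responses 0 of 9 receptors were called in edgeR (0.0308% of all genes) and 5 of 9 had an unadjusted p under 0.05 (10.1%): EPHA1, EPHA2 and EPHA10 below 0, EPHB2 and EPHB3 above 0. DESeq2 called 1 of 9 there, EPHA2, where 1.66% of all genes were called. EPHB2 had a difference of 1.29 (SE 0.43, edgeR adjusted p = 0.419), EPHB3 of 1.13 (SE 0.44, 0.464) and EPHB1 of 1.21 (SE 0.52, 0.494), against -1.58 for EPHA10 (SE 0.59, 0.447) and -1.53 for EPHA1 (SE 0.64, 0.484). With the controls exchanged, EPHA1 (1.65) and EPHB2 (-0.37) turned, and EPHA10 was at -0.12, EPHB1 at 0.086 and EPHB3 at 0.18. EPHA1 was at -0.76 without PC3 control replicate 2, EPHA10 at -0.83 without DU145 EphA2 OE replicate 1, and EPHB1 and EPHB2 at 0.64 and 0.78 without PC3 EphA2 KO replicates 2 and 1.

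No receptor passed between the control groups. Comparing PC3 control with DU145 control, 0 of 9 were called in edgeR (0.0572% of all genes) or DESeq2 (1.3%), and 2 of 9 had an unadjusted p under 0.05 (9.01%), EPHA1 higher and EPHB2 lower. Log2 fold changes were 1.59 for EPHA1 (SE 0.46, edgeR adjusted p = 0.408; 0.82 without PC3 control replicate 2), -0.83 for EPHB2 (SE 0.30, 0.494) and -0.14 for EPHA2 (SE 0.09, 0.694). The libraries did not overlap for 6 of 9 receptors, 2 higher and 4 lower in PC3 control, where 44.1% of all genes did not overlap (27.5% higher and 16.6% lower). This comparison shares its control libraries with the knockout and the overexpression.

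EPHA2 set the total of the family. The 9 receptors summed to 58.6 and 53.1 FPKM in PC3 EphA2 KO and to 71.0 and 73.8 FPKM in PC3 control. They summed to 85.7 and 97.4 FPKM in DU145 EphA2 OE and to 76.3 and 75.4 FPKM in DU145 control. EPHA2 took 71.2% and 71.0% of the sum in PC3 EphA2 KO and 77.6% and 75.4% in PC3 control, against 80.9% and 83.2% in DU145 EphA2 OE and 77.1% and 78.2% in DU145 control. The ratio of EPHA2 to EPHB4 was 3.20 ± 0.108 in PC3 EphA2 KO and 4.40 ± 0.311 in PC3 control, and 5.91 ± 0.390 in DU145 EphA2 OE and 4.64 ± 0.367 in DU145 control (SD, n = 2 each). The other 7 receptors together never exceeded 4.88 FPKM.

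**Figure D3:**
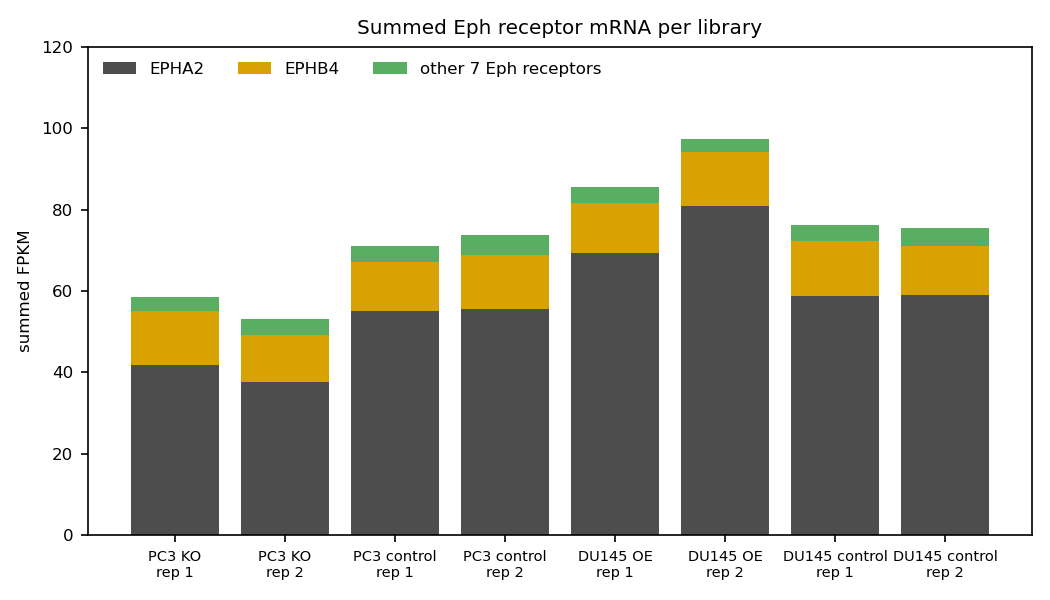
Summed FPKM of the 9 Eph receptors in each of the 8 libraries (bars from 0), divided into EPHA2, EPHB4 and the other 7. The sum is lowest in the PC3 EphA2 KO libraries (58.6 and 53.1) and highest in the DU145 EphA2 OE libraries (85.7 and 97.4), and EPHA2 makes up 71.0% to 83.2% of it.

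The ligands were present at levels below EPHA2. Of the 8 ephrin genes, EFNA4 and EFNA1 had the highest mean FPKM (7.75 and 7.17), and EFNA1 is the ligand most often paired with EPHA2. No ephrin passed in edgeR in any of the comparisons, where 0.0264% to 0.0572% of all genes did. None had an unadjusted p under 0.05 (6.62% to 10.1% of all genes), and DESeq2 called 0 of 8 (0.768% to 1.66%). In the knockout 4 of 8 lay above 0 (median log2 fold change -0.07) and in the overexpression 4 of 8 (median 0.05). EFNA1 was at 5.78 and 6.91 FPKM in PC3 EphA2 KO and at 8.56 and 7.17 FPKM in PC3 control. It was at 6.25 and 10.9 FPKM in DU145 EphA2 OE and at 5.61 and 6.25 FPKM in DU145 control. The libraries did not overlap in either comparison, though the nearest libraries in the overexpression both read 6.25 FPKM after rounding, at log2 fold changes of -0.29 and 0.47 (SE 0.25 each, edgeR adjusted p = 0.879 and 0.617). EFNA4 had log2 fold changes of 0.24 and -0.07 (SE 0.19 each, edgeR adjusted p = 0.854 and 0.95). EFNA1 with the controls exchanged turned in the knockout (0.063) and EFNA4 in the overexpression (0.15). Without DU145 EphA2 OE replicate 2 the overexpression value of EFNA1 was 0.058.

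**Figure D4:**
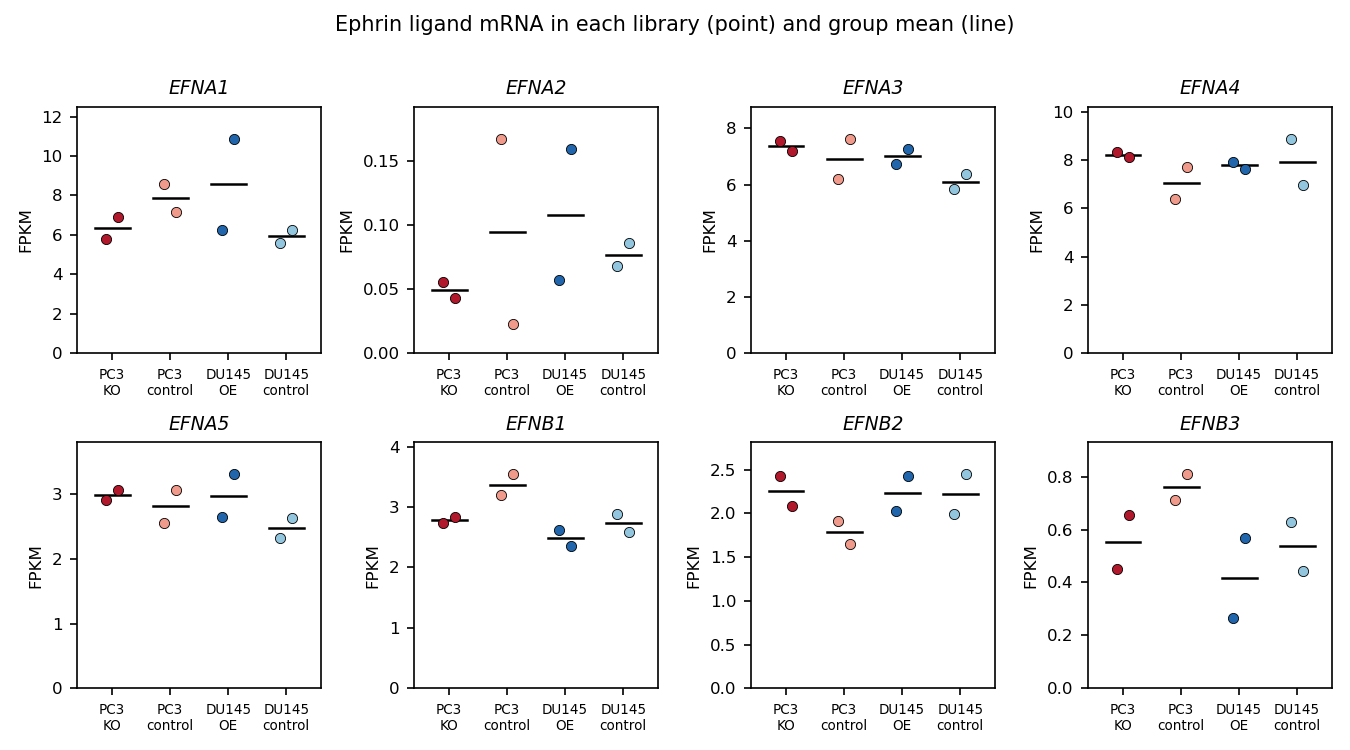
FPKM of the 8 ephrin genes (vertical axes, each from 0, with a scale of its own) in the 4 groups (horizontal axes); points are libraries and lines group means. EFNA1 reaches 10.9 FPKM in DU145 EphA2 OE replicate 2 and EFNA2 stays close to 0 in all libraries.

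Proteases that cut Eph receptors or ephrins were led by MMP14, a membrane-bound metalloproteinase known to cleave EPHA2, at a mean of 134 FPKM, and NCSTN, a subunit of gamma-secretase, at 42.5 FPKM. Of 12 tested, 0 passed in edgeR in any comparison (0.0264% to 0.0572% of all genes). In the knockout and the overexpression 3 each had an unadjusted p under 0.05 (6.62% and 9.06% of all genes), named after their values were seen: ADAM12, ADAM19 and MMP14. DESeq2 called 1 of 12 in the knockout (0.768% of all genes) and 0 in the overexpression (1.33%). It called 2 in the difference of responses (1.66%) and 1 between the controls (1.3%). MMP14 was at 153 ± 4.1 FPKM in PC3 EphA2 KO and 110 ± 1.5 FPKM in PC3 control (SD, n = 2 each). DU145 EphA2 OE averaged 129 ± 7.65 FPKM and DU145 control 145 ± 4.55 FPKM (SD, n = 2 each). Its log2 fold changes were 0.50 (SE 0.07, edgeR adjusted p = 0.171; DESeq2 adjusted p = 0.00278) and -0.21 (SE 0.07, 0.491; DESeq2 0.552) in the knockout and the overexpression. They were, with the controls exchanged, 0.039 and 0.25, so the direction in the overexpression turned. MMP14 was itself lower in PC3 control than in DU145 control (log2 fold change -0.46, DESeq2 adjusted p = 0.00688). ADAM19, a metalloproteinase of the same class as the ephrin sheddases, had 0.38 (SE 0.13) and -0.49 (SE 0.13), and ADAM12 -1.02 (SE 0.40) and -1.13 (SE 0.39). NCSTN had 0.10 and -0.08, and both turned with the controls exchanged (-0.10 and 0.12).

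Of 18 kinases and phosphatases that act at Eph receptors, 16 lay below 0 in the knockout (median log2 fold change -0.13), where 50.3% of all genes did, and 7 in the overexpression (median 0.03). With the controls exchanged, 7 of 18 lay below 0 in the knockout (median 0.052) and 11 in the overexpression, and between the controls 14 of 18 were above 0 in PC3 control. None of the 18 passed in edgeR (0.0264% to 0.0572% of all genes) or DESeq2 (0.768% to 1.66%) in any comparison. In the knockout 2 had an unadjusted p under 0.05 (6.62% of all genes), ABL2 (-0.42) and AKT1 (-0.30), named after their values were seen. The most abundant members were PTPN11, the phosphatase SHP2 (-0.11 and -0.12 in the knockout and the overexpression), and YES1, a SRC family kinase (-0.11 and 0.53). YES1 was at 38.5 and 41.6 FPKM in DU145 EphA2 OE and at 39.3 and 14.6 FPKM in DU145 control, and without DU145 control replicate 2 its overexpression value was -0.0081. It turned in both comparisons with the controls exchanged (0.59 and -0.17). Of 36 adaptors, exchange factors and effectors that act downstream of Eph receptors, 15 lay above 0 in the knockout (median -0.03) and 18 in the overexpression (median -0.02). In edgeR 0 of them passed in any comparison (0.0264% to 0.0572% of all genes). Its unadjusted p was under 0.05 for 0 in the knockout and 8 in the overexpression (6.62% and 9.06% of all genes). DESeq2 called 0 and 2 in the knockout and the overexpression (0.768% and 1.33%). After the controls were exchanged, 22 of 36 lay above 0 in the knockout and 11 in the overexpression. RAC1, a GTPase that drives protrusion of the cell edge, had log2 fold changes of 0.06 in the knockout and 0.03 in the overexpression.

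CDH1, the E-cadherin of the series' title, had a difference of responses of 0.88 on the log2 scale (SE 0.13, 95% interval 0.57 to 1.18), against -0.77 for EPHA2. In edgeR the adjusted p of this CDH1 difference was 0.114, and in DESeq2 0.000326. The log2 fold change of CDH1 was 0.45 in the knockout (edgeR adjusted p = 0.415, DESeq2 0.0499). In the overexpression it was -0.43 (edgeR adjusted p = 0.368, DESeq2 0.0602).

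Over the 8 libraries, TGFB2, a secreted cytokine, had the profile most like that of EPHA2. Likeness was the root mean square difference between both genes' log2(FPKM + 1) values, each after subtracting its own mean, over 12820 genes with a mean of at least 1 FPKM. It was 0.105 for TGFB2, 0.124 for IFIT5, an interferon-induced gene, 0.127 for BTF3L4P2, 0.146 for GADD45B, a stress-induced gene, and 0.149 for IL32, a cytokine. The median over these genes was 0.360, and a gene with no change at all would have 0.329. Of the genes ranked, 3805 had a smaller difference from EPHA2 than that. BTF3L4P2 is a pseudogene whose reads may partly come from its parent gene, so its values are uncertain. TGFB2 averaged 0.491 FPKM in PC3 EphA2 KO and 0.907 in PC3 control, and 2.00 in DU145 EphA2 OE and 1.25 in DU145 control. At these low levels the log2(FPKM + 1) scale understates its changes, so its likeness to EPHA2 holds on this scale only. Like EPHA2, all 5 were highest in DU145 EphA2 OE replicate 2. They were chosen by likeness over these same 8 libraries, so the shared high library is not a separate result. Replicates were less alike in DU145 EphA2 OE, with a median absolute log2 difference of 0.183 over 8260 genes with a mean above 20 CPM, against 0.0889 to 0.119 in the other groups.

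**Figure D5:**
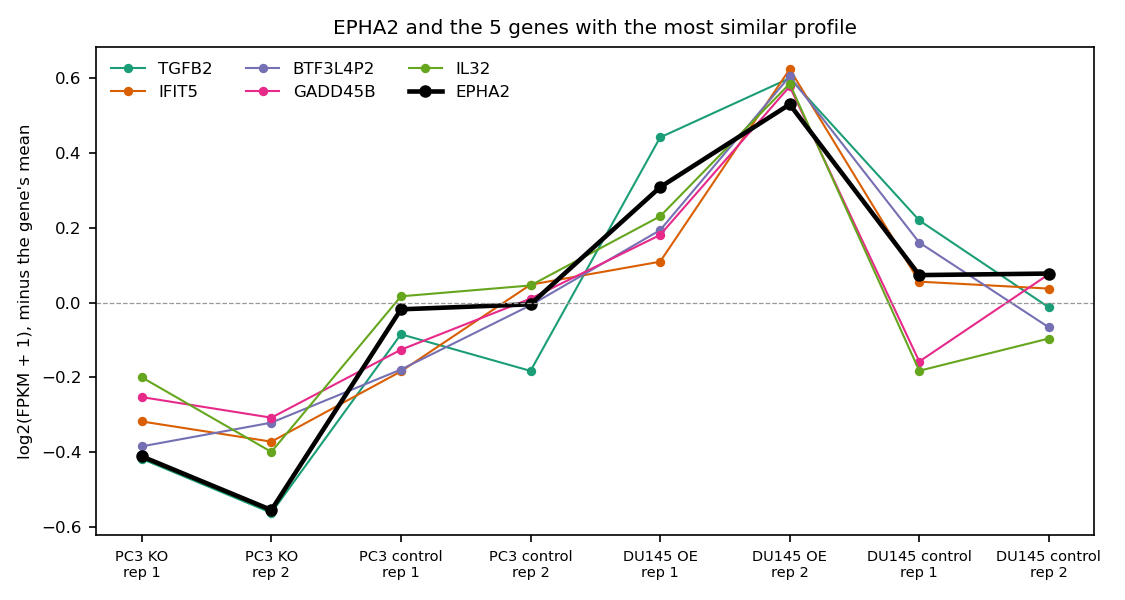
Log2(FPKM + 1) of EPHA2 and of the 5 genes most like it in each library (horizontal axis), after subtracting each gene's mean over the 8 libraries (vertical axis); lines join the values of a gene and imply no order of the libraries. All 6 genes are lowest in the PC3 EphA2 KO libraries and highest in DU145 EphA2 OE replicate 2. The 5 were chosen by their likeness to EPHA2 in these same libraries.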

How the data were processed

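Poly(A) RNA of 8 libraries was sequenced as paired ends with a dUTP protocol, per the labels' protocols. For 33221 genes, the authors deposited raw counts (whole numbers) and FPKM, in 16 columns, 0 of them unmapped. GRCh38, HISAT2 2.2.1, cutadapt 1.9, edgeR, StringTie 2.1.6 and DESeq2 are named in the submitters' processing notes; what each did, the annotation and strand use in counting were not stated there.

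edgeR 4.0.16 (R 4.3.3) was run on the deposited counts with 4 group means over 8 libraries (4 residual degrees of freedom), filterByExpr (minimum count 10, minimum total 15), TMM factors of 0.973 to 1.03, and quasi-likelihood tests with Benjamini-Hochberg adjustment over 22727 genes at 0.05. Each SE is the size of the log2 fold change divided by root F, and 95% intervals are not adjusted. Alternatives were DESeq2 1.42.0, limma 3.58.1 on log2(FPKM + 1) and log2(FPKM + 0.1), other scalings and filters, left-out libraries, a replicate term and exchanged controls; the code was tested on simulated data. Replicates are not said to be separate cultures, so p-values may measure technical spread. Replicate pairs were distinct libraries, with a chi-square per degree of freedom of 42.4 to 93.0 between their counts. The receptors and gene lists were chosen with earlier results of these data known. Genes named are the receptors, CDH1, the 2 most abundant of each list, the 5 with profiles most like EPHA2, and any named after their values were seen; some genes that these rules name are not reported here.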

Additional observations from a re-analysis of the deposited data

Results flagged for a closer look

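EPHA2 was singled out because its log2 fold changes had opposite directions in the knockout and the overexpression. It is the gene that the guide targets and the plasmid expresses, so opposite directions were the aim of the design. Both PC3 EphA2 KO libraries lay below both PC3 control libraries, and both DU145 EphA2 OE libraries above both DU145 control libraries. The difference of the log2 fold changes was -0.77, and tested as an interaction it did not pass in edgeR (adjusted p = 0.169) but did in DESeq2 (adjusted p = 0.00453).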

How the results depend on the processing

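EPHA2 kept its direction in all 4 comparisons under every alternative run for it. Counts of all genes called moved with the tool and with left-out libraries. In the knockout (6 in edgeR) they were 166 with DESeq2, 190 with DESeq2 on the genes tested in edgeR (chosen after seeing the data), 12 with a mean of at least 1 FPKM, 13 with the controls exchanged and 10 with limma on log2(FPKM + 0.1). In the overexpression (9) they were 296 and 309 with DESeq2, 4 with no filter, and 0 with only the groups compared (1237 genes at an unadjusted p under 0.05). In the difference of responses (7) they were 370 and 410 with DESeq2, 23 with the FPKM filter, 16 with the controls exchanged and 11 with limma on log2(FPKM + 1). Between the controls (13) they were 282 and 357 with DESeq2, 20 with only the groups compared and 28 with limma on log2(FPKM + 0.1). With a replicate block they were 0 in the knockout (1327 genes at an unadjusted p under 0.05) and 3 in each of the other comparisons, with EPHA2 at -0.46 and 0.31; deviations of same-numbered libraries correlated at -0.0157 to 0.042, so the numbers were not taken to pair the samples. Leaving out 1 library gave 6 to 27, 3 to 376, 11 to 323 and 4 to 114 genes; 376 and 323 came without DU145 EphA2 OE replicate 1. The count of Eph receptors called was 1, EPHA2, with DESeq2 on the genes tested in edgeR in the knockout (log2 fold change -0.46) and with both DESeq2 runs in the difference; it was 0 to 1 there with 1 library left out.

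With the controls exchanged, directions turned for EPHA1 (1.35), EPHB1 (-0.18), EPHB2 (-0.33) and EPHB6 (-0.23) in the knockout, and for EPHA1 (-0.30), EPHA10 (-0.26), EPHB2 (0.038) and EPHB4 (0.019) in the overexpression. In the difference they turned for EPHA1 (1.65), EPHB2 (-0.37), EPHB4 (-0.088) and EPHB6 (-0.21). Library totals in place of TMM turned EPHB4 in the overexpression (0.0029) and the difference (-0.022) and EPHA4 between the controls (0.016). Both limma fits turned EPHB4 in the difference (-0.022 and -0.024) and EPHA4 between the controls (0.0053 and 0.018). Leaving out 1 library turned EPHA1 (-0.74 to 0.53), EPHA4 (-0.28 to 0.0082), EPHB1 (-0.19 to 0.79), EPHB2 (-0.015 to 0.88), EPHB3 (-0.42 to 0.058), EPHB4 (-0.11 to 0.10) and EPHB6 (-0.17 to 0.26) in the knockout. It turned EPHA10 (-0.27 to 0.97), EPHB4 (-0.11 to 0.031) and EPHB6 (-1.15 to 0.22) in the overexpression. It turned EPHA4 (-0.033 to 0.38), EPHB4 (-0.065 to 0.15) and EPHB6 (-0.16 to 1.21) in the difference, and EPHA4 (-0.23 to 0.18) and EPHB4 (-0.15 to 0.012) between the controls. The cause was not tested. Between the controls the exchange only turns the sign and was not run. The 7 low receptors, at 49 to 1056 counts, have the widest intervals.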
